A study of Mus musculus with 12 samples.

Results

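The arrays described here are 6 of the 12 of the series, 3 of HM1 mouse cells at day 4 and 3 at day 6 of neuronal differentiation, chosen by the line and day in the sample titles. HM1 cells are mouse embryonic stem cells, male, with a defective Hprt gene, and serve as the line without expanded CAG repeats. The other 6 arrays are of CAG150 cells, embryonic stem cells with expanded CAG repeats, at the same days. The gene meant is taken to be Htt, mutated in Huntington's disease, which the labels used here do not spell out. The labels name no medium, inducer, culture, passage or array date, give "nervous system" as the source, and do not say whether samples within a group grew in separate cultures. All HM1 samples are of 1 line. The p-values below therefore measure only the spread between these samples, which may be technical. For HM1 samples titled day 6 the descriptions name the earlier day, and for day 6 samples of both lines they give every sample as replicate 1. Groups, replicate numbers and n = 3 a day follow the titles.

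Embryonic stem cells that leave the pluripotent state pass through an epiblast-like stage and become neural progenitors, which divide and carry Sox, Pax and Notch target genes. Proneural helix-loop-helix factors then push single progenitors out of the cell cycle, and the young neurons switch on microtubule and neurofilament proteins, RNA-binding proteins of the Elavl family and, later, synaptic proteins and channels. Signals such as retinoic acid, FGFs, Wnts and Sonic hedgehog set the position of these cells along the neural tube, which is read from Hox, Otx, Pax and Irx genes. In bulk samples such as these, fewer cells of a type and less RNA per cell cannot be told apart.

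Each value is an Affymetrix intensity, scaled to the same trimmed mean of 150 on every array. A gene is given by its brightest named probe set, and levels are compared only within a gene. Differences are day 6 minus day 4 of log2(intensity + 16) with their standard error (SE), n = 3 arrays a day, and folds are taken from these differences, so that the fold of a dim gene is understated. A gene is called where limma's p, adjusted by Benjamini-Hochberg over 45037 probe sets, is under 0.05. Median intensities of the 6 HM1 arrays lay between 19.2 and 23.6. Pairs of arrays of 1 day had correlations of 0.986 to 0.989 over probe sets, and pairs from different days 0.971 to 0.976.

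Between day 4 and day 6 20.2% of the named genes changed, and genes of young neurons were among the largest rises. Of 45037 probe sets 6661 (14.8%) were called, 4036 higher (8.96%) and 2625 lower (5.83%). Of 18193 named genes, 3677 (20.2%) were called. Higher at day 6 were 2024 genes (11.1%) and lower were 1653 (9.09%). At least 2-fold higher were 449 genes (2.47%), against 168 (0.923%) that were at least 2-fold lower. The 3 arrays of day 6 did not overlap the 3 of day 4 in 3648 of the called genes. Over all named genes, 3503 (19.3%) had day 6 entirely above day 4 and 3328 (18.3%) entirely below. The balance between rises and falls depended on the scaling: with each array centred on its median, 1381 genes were higher and 2366 lower, and the median difference over all genes went from 0.01 to -0.10. Of the called genes, 1844 had another probe set above the 40th percentile of signal, which was called the same way for 1033 and the opposite way for 10. Of the genes named here as called, these had other such probe sets of which none was called the same way: Btg2, Ccnd3, Cdon, Chrnb2, Ddit3, Efna5, Epcam, Gdf3, Hoxb3, Il17rd, Impact, Irs4, L1cam, Lin28a, Lss, Mcm10, Msx1, Pdgfra, Peg3, Prc1, Ptbp1, Ptprn2, Qprt, Rest, Scn3b, Sgce, Slc17a6, Slit1, Sox17, Srrm4, Tfap2a, Vcl, Wnt7a, Zdhhc17 and Zic1. For these only some of the others were: Bmp7, Btg1, Cad, Chrna4, Dcc, Efnb2, Egfl7, Fzd3, Gdap1, H2-K1, Jag1, Lrp2, Meg3, Meis1, Mycn, Myh9, Mylk, Pfkl, Rufy3, Tgfb2, Tpm2 and Zeb1.

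**Figure D1:**
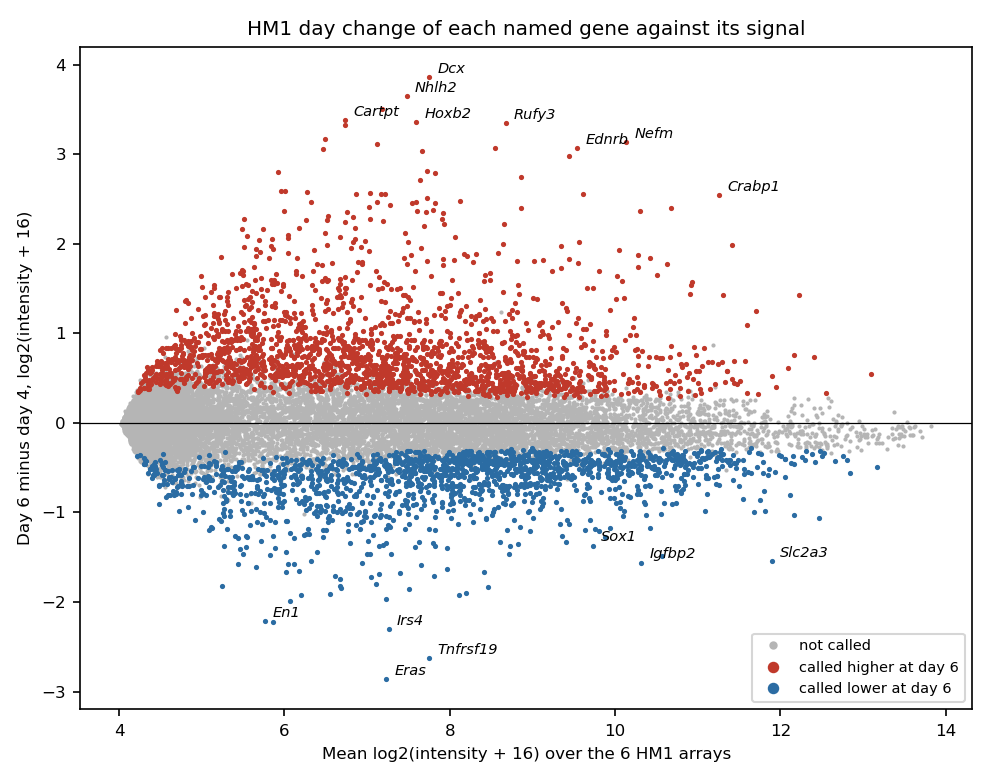
Day change of each of the 18193 named genes in HM1 (vertical axis, day 6 minus day 4 of log2(intensity + 16)) against its mean log2(intensity + 16) over the 6 HM1 arrays (horizontal axis). Each point is a gene, with 2024 called higher and 1653 called lower, and the named rises reach 3.86 (Dcx) while the falls end at -2.86 (Eras).

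The 12 largest rises were those of Dcx, Nhlh2, Neurog1, Cartpt, Hoxb2, Rufy3, Dner, Wnt7a, Nefm, Thsd7a, Pantr1 and Ednrb. They were taken only from called genes whose day 6 arrays did not overlap those of day 4. Dcx, doublecortin, binds the microtubules of migrating young neurons. It had intensities of 40.8, 38.1 and 43.1 at day 4 and 872, 737 and 814 at day 6, a 14.5-fold rise (3.86 ± 0.10, adjusted p = 1.9e-09). Nhlh2, a helix-loop-helix factor of newly formed neurons, stood at 35.3, 38 and 30 at day 4 and 617, 562 and 680 at day 6 (3.65 ± 0.11, adjusted p = 5.5e-09). Both genes were dim and tightly grouped at day 4, and every day 6 array lay far above every day 4 array. Neurog1, a proneural factor that drives progenitors into the neuronal lineage, read 31.8, 31.9 and 19.5 at day 4 and 483, 403 and 545 at day 6 (3.50 ± 0.17, adjusted p = 8.9e-08).

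Among the others, Cartpt encodes a secreted neuropeptide precursor and Dner a Notch-related transmembrane protein of neurons. Cartpt gave 20.4, 13.3 and 17.9 at day 4 and 331, 334 and 321 at day 6 (3.38 ± 0.14, adjusted p = 2.9e-08), and Dner gave 14.8, 19.8 and 18.8 at day 4 and 334, 312 and 318 at day 6 (3.32 ± 0.15, adjusted p = 4e-08). Rufy3, a protein of growth cones and axons, was measured at 95.4, 129 and 114 at day 4 and 1371, 1256 and 1247 at day 6 (3.35 ± 0.20, adjusted p = 4.4e-07). In all 3 genes the days were far apart compared with the spread of 3 arrays. Thsd7a, a thrombospondin-type membrane protein, went from 31.3 ± 4.89 to 395 ± 59 (mean ± SD), an 8.66-fold rise, and Pantr1, a long noncoding RNA beside the neural POU factor gene Pou3f3, from 116 ± 36.8 to 1067 ± 26.4, an 8.4-fold rise. Ednrb, the endothelin B receptor of neural progenitors and crest cells, rose from 242 ± 19.8 to 2140 ± 74.9 (3.07 ± 0.10, adjusted p = 1.1e-08). That the days did not overlap in these genes follows from how they were chosen.

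The promoters of Nhlh2, Rufy3 and Thsd7a hold an E-box, the CANNTG element that proneural factors bind, in the 250 bases before the first RefSeq start (GRCm38.p6), and are shown with that of a falling gene, Qprt, which holds one too. Of the possible E-boxes only the CAGCTG or CAGATG is in capitals, on the strand of the gene, and other CANNTG sites are not marked. The regions are chr3:102009895-102010144 (Nhlh2, plus strand), chr5:88564790-88565039 (Rufy3, plus strand), chr6:12749254-12749503 (Thsd7a, minus strand) and chr7:127122030-127122279 (Qprt, minus strand).
Nhlh2: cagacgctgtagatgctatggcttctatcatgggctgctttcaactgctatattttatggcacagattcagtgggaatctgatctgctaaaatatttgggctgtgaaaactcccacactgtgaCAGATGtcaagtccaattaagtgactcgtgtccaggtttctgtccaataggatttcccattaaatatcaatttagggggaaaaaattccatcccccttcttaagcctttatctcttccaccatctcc
Rufy3: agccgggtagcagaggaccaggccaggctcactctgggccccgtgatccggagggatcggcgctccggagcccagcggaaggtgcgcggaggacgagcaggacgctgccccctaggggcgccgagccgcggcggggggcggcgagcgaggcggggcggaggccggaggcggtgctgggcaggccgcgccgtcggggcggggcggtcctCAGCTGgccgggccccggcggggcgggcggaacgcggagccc
Thsd7a: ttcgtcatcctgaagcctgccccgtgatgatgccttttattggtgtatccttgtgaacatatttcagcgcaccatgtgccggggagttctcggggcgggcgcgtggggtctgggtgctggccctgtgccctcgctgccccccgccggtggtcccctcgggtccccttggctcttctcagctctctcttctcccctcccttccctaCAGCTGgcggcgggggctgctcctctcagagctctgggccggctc
Qprt: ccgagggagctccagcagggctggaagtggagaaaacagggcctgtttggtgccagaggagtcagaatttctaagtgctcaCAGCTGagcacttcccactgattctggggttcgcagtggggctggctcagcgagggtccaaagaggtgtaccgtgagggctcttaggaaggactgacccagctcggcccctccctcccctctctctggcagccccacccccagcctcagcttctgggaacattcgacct
The E-box forms searched here were read on both strands, CAGCTG, which reads the same on each, and CAGATG. The first base of the CAGATG of Nhlh2 lies 127 bases before its start. The CAGCTG lies 42 bases before the start of Rufy3, 45 before that of Thsd7a and 169 before that of Qprt. CAGCTG stood in 12.5% of the 14367 promoters of named genes that could be matched, in 13.6% of those of genes called higher and 11.1% of those called lower. It was found in 54 of 324 (16.7%) of genes at least 2-fold higher and in 11.3% of genes at least 2-fold lower. CAGATG stood in 11.6% of all promoters, 9.85% of those of genes called higher and 9.11% of those called lower, and in 11.1% of genes at least 2-fold higher and 8.87% at least 2-fold lower. Of the other largest rises, Cartpt holds CAGATG on the opposite strand, and Dcx, Neurog1, Dner, Wnt7a and Ednrb hold neither form. Hoxb2, Nefm and Pantr1 had no promoter that could be matched. A match describes the letters in this window and is no evidence of binding.

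The 12 largest falls were those of Eras, Tnfrsf19, Irs4, Tal2, En1, Gdf10, Fgfbp1, H2-K1, Fezf2, Qprt, Snhg3 and Lpl. They too were taken only from called genes without overlap of the days. Eras, a Ras-like GTPase of embryonic stem cells, read 309, 384 and 496 at day 4 and 36, 53.1 and 32 at day 6 (-2.86 ± 0.19, adjusted p = 1e-06). Tnfrsf19, a TNF receptor family member that Wnt signalling induces, went from 520 ± 40.1 to 71.5 ± 14.7, a 6.18-fold fall (adjusted p = 6.9e-08). Irs4, an adaptor of insulin and IGF receptors, was at 314, 317 and 343 at day 4 and 44.8, 54.1 and 61.9 at day 6 (-2.30 ± 0.13, adjusted p = 2.5e-07). In each of them the lowest day 4 array lay far above the highest day 6 array. Tal2, a helix-loop-helix factor of midbrain GABAergic neurons, fell 4.66-fold from 110 ± 13.8 to 11.1 ± 3.85, and Gdf10, a TGF-beta family ligand, 3.99-fold from 118 ± 12.7 to 18.2 ± 7.52. Qprt, which makes nicotinate mononucleotide from quinolinate, went from 165 ± 5.83 to 32.4 ± 4.77 (-1.91 ± 0.12, adjusted p = 8.3e-07). Lpl, lipoprotein lipase, went from 333 ± 30 to 81.3 ± 22.3 (-1.86 ± 0.15, adjusted p = 5.4e-06).

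Most proneural and neurogenic factors rose. Of 31 named members of this list 23 were called higher and 0 lower, with a median difference of 1.45, where 11.1% and 9.09% of all named genes were called and their median was 0.01. This list and those below were chosen with earlier results of these data known, so that their counts describe and do not test. The shares over all genes also include dim ones. Of 18193 named genes 12280 lay above the 40th percentile of signal, and only 197 of the 3677 called genes lay below it. In this list 26 of 31 members lay above it. Beyond Neurog1 and Nhlh2, Neurod4, a downstream factor of the neurogenins, gave 39, 35.9 and 31.5 at day 4 and 251, 229 and 233 at day 6 (2.30 ± 0.10, adjusted p = 3.7e-08). St18, a Myt-family zinc finger factor of neurons, gave 45.8, 27.4 and 26 at day 4 and 295, 244 and 265 at day 6 (2.55 ± 0.15, adjusted p = 4.7e-07). The factors Ebf1 and Ebf3, which act in the migration and differentiation of new neurons, rose 4.86-fold and 5.45-fold, from 43.5 ± 6.23 to 274 ± 30.2 and from 63.9 ± 3.62 to 421 ± 49.5. None of these genes had an array of day 6 within the range of day 4. Of the 8 members not called, Sox12 read 255, 273 and 218 at day 4 and 218, 170 and 226 at day 6 (-0.27 ± 0.14, adjusted p = 0.27), with overlapping days. Cbfa2t3 read 36.7, 27.4 and 33.5 at day 4 and 10.9, 32.9 and 15.1 at day 6 on its brightest probe set (-0.49 ± 0.29, adjusted p = 0.32), while its 2 other bright probe sets were both called higher.

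Genes for structural proteins of the axon and dendrite mostly rose: 26 of 32 named members were called higher and 2 lower (median 1.44). Nefm and Nefl, the medium and light neurofilament subunits, were at 381, 361 and 347 at day 4 and 3430, 2871 and 3691 at day 6 for Nefm (3.13 ± 0.11, adjusted p = 1.1e-08) and at 733, 662 and 707 at day 4 and 3709, 3674 and 3901 at day 6 for Nefl (2.40 ± 0.11, adjusted p = 4.3e-08). Tubb3, the neuronal beta-tubulin, read 543, 571 and 478 at day 4 and 2261, 1788 and 2144 at day 6 (1.93 ± 0.14, adjusted p = 2.5e-06). In all 3 genes each day 6 array was above each day 4 array. Map2, a dendritic microtubule protein, rose 4.66-fold (171 ± 4.61 to 856 ± 74.4), Mapt, tau, 4.97-fold (25.5 ± 1.28 to 193 ± 44.3), Gap43, a growth cone protein, 6.71-fold (164 ± 14.8 to 1194 ± 121), and Stmn4, a stathmin of neurons, 4.76-fold (51.8 ± 10.9 to 305 ± 16.5). Nefh, the heavy neurofilament subunit of mature axons, and Prph, peripherin, were the 2 called lower (-0.66 and -0.59, adjusted p = 0.0021 and 0.045, named after their values were seen). That count of 2 was 1 without any single array other than day 4 replicate 2.

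Stmn2, the stathmin of growing axons, stood apart from this group. Its brightest probe set read 2081, 2220 and 2023 at day 4 and 2180, 1904 and 2109 at day 6 (-0.03 ± 0.10, adjusted p = 0.9), so that the days overlapped, while another bright probe set of the gene was called higher. Nrcam, a cell adhesion molecule of axons, was not called either, at 288, 287 and 305 at day 4 and 280, 277 and 273 at day 6 (-0.08 ± 0.08, adjusted p = 0.62), and 1 of its 3 other bright probe sets was called higher.

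**Figure D2:**
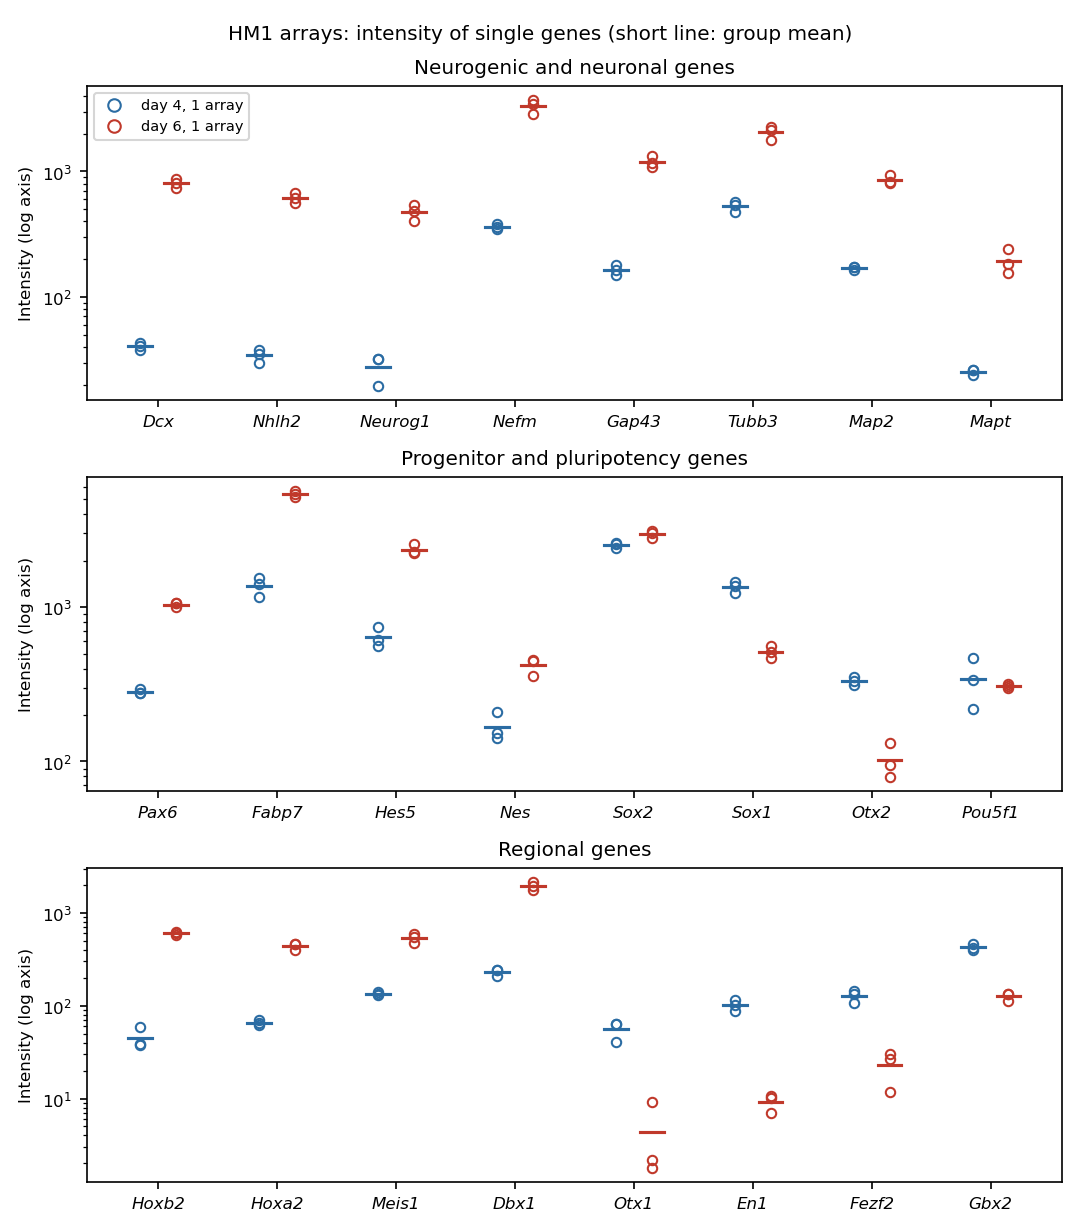
Intensity of 24 genes on each HM1 array (log axis, open circles, blue for the 3 arrays of day 4 and red for the 3 of day 6, short lines for the group means). The top row holds neurogenic and neuronal genes, all higher at day 6, the middle row progenitor and pluripotency genes, among which Pax6 is higher and Sox1 lower, and the bottom row regional genes, with Hox genes and Dbx1 higher and Otx1, En1, Fezf2 and Gbx2 lower.

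Genes of RNA-binding proteins that control splicing and stability of neuronal transcripts mostly rose: 12 of 16 were called higher and 1 lower (median 0.77). Elavl4, an RNA stabiliser of postmitotic neurons, gave 109, 108 and 90.6 at day 4 and 622, 612 and 694 at day 6 (2.48 ± 0.12, adjusted p = 8.9e-08). Elavl3, its close relative, rose 3.58-fold from 76.2 ± 7.05 to 314 ± 9.93, and Elavl2 2.25-fold from 492 ± 101 to 1113 ± 120. Srrm4, which promotes neuronal microexon splicing, went from 18.8 ± 6.28 to 85.5 ± 15.4, a 2.92-fold rise, and Nova1, another neuronal splicing factor, from 184 ± 20.4 to 368 ± 22.9, a 1.93-fold rise. The member called lower was Ptbp1 (-0.56 ± 0.11, adjusted p = 0.0049), named after its values were seen. Rbfox2 and Celf5 were not called (0.05 ± 0.30 and 0.22 ± 0.12, adjusted p = 0.95 and 0.28), and the 3 day 6 arrays of Rbfox2 were uneven at 234, 225 and 84.

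Synaptic and secretory granule genes rose in 18 of 30 members and fell in 0 (median 0.53). Chgb, a granin of dense-core vesicles, read 46.8, 49.8 and 40 at day 4 and 346, 342 and 343 at day 6 (2.55 ± 0.13, adjusted p = 1.4e-07). The related Scg3 and Scg2 rose 5.07-fold (91.3 ± 7.62 to 528 ± 15.4) and 4.8-fold (19.9 ± 9.45 to 152 ± 10.3). Snap25, a SNARE protein of vesicle fusion, gave 43.4, 45.2 and 49.8 at day 4 and 241, 239 and 231 at day 6 (2.03 ± 0.12, adjusted p = 3.3e-07). The 3 values of each day lay close together, with a wide gap between the days. Sncg, gamma-synuclein, rose 4.13-fold from 9.39 ± 1.14 to 88.8 ± 5.62, while the complexins Cplx1 and Cplx2, which clamp vesicle fusion, were not called (0.20 ± 0.12 and 0.08 ± 0.14, adjusted p = 0.34 and 0.78).

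Of 26 ion channel and receptor genes 7 were called higher and 0 lower (median 0.24). Scn3a, a sodium channel subunit of embryonic neurons, rose from 11.3 ± 3.47 to 75.9 ± 14.7 (1.74 ± 0.16, adjusted p = 1.8e-05). The nicotinic receptor subunits Chrna3, Chrna4 and Chrnb2 rose 2.56-fold, 1.88-fold and 2.22-fold. Cacna2d1, a calcium channel subunit, was not called at 61.7, 68.4 and 53.1 at day 4 and 67.7, 68.3 and 80 at day 6 (0.19 ± 0.13, adjusted p = 0.41). Of 28 transmitter and peptide genes 7 were called higher and 2 lower, Slc6a4 and Penk (median 0.21), and the count of 2 was 0 without day 6 replicate 1 and 1 without day 4 replicate 2, day 4 replicate 3 or day 6 replicate 3. Sst, somatostatin, gave 42.9, 37 and 41.9 at day 4 and 277, 268 and 307 at day 6 (2.41 ± 0.13, adjusted p = 1.5e-07). Nts, neurotensin, rose from 7.65 ± 3.96 to 37.7 ± 5.59 (1.19 ± 0.13, adjusted p = 6.7e-05). The vesicular glutamate transporter Slc17a6 and the vesicular GABA transporter Slc32a1 stayed dim, at 1.31, 6.76 and 1.61 at day 4 and 16.4, 15.5 and 35.5 at day 6 for the first and 1.84, 1.42 and 9.47 at day 4 and 23.4, 19.1 and 23.7 at day 6 for the second. Both were called (0.97 ± 0.21 and 0.93 ± 0.16, adjusted p = 0.0085 and 0.0018), but Slc17a6 had an adjusted p of 0.052 with a pseudocount of 64 and Slc32a1 one of 0.17 with the mean over its probe sets.

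Guidance receptors and their ligands, which steer growing axons, rose in 17 of 32 members and fell in 4 (median 0.52), and 2 were lower without day 4 replicate 2. Dcc, the netrin receptor, read 70.6, 87.7 and 55.1 at day 4 and 598, 539 and 602 at day 6 (2.79 ± 0.13, adjusted p = 6.7e-08). Robo3, a receptor of commissural axons, read 0.832, 10.8 and 3.55 at day 4 and 80, 74.4 and 99.8 at day 6 (2.28 ± 0.16, adjusted p = 1.3e-06), near the floor of the array at day 4 and clearly above it at day 6. Robo1, which receives Slit signals, went from 199 ± 13.8 to 484 ± 32.4 and Slit1, a Slit ligand, from 21.4 ± 3.53 to 78.9 ± 11.8, rises of 2.33-fold and 2.53-fold. Epha5, an ephrin receptor, rose 2.38-fold from 9.47 ± 3.98 to 44.4 ± 6.57. Nrp2, a semaphorin co-receptor, went the other way, at 339, 363 and 343 at day 4 and 108, 102 and 177 at day 6 (-1.37 ± 0.19, adjusted p = 0.00043). The other 3 called lower were Sema3e, Efna5 and Efnb2 (-1.18, -0.46 and -0.31, adjusted p = 0.00038, 0.015 and 0.032, named after their values were seen).

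REST is a repressor that keeps neuronal genes silent outside neurons. Of 29 members of a list of REST, its partners and its known targets 15 were called higher and 2 lower (median 0.52). The list shares Chgb, Scg2, Scg3 and Snap25 with the synaptic list above, so that its count partly repeats those rises. Stmn2, also a member, was not called on its brightest probe set (-0.03 ± 0.10, adjusted p = 0.9). Gdap1, a mitochondrial outer membrane protein of neurons, rose 4.35-fold (27.5 ± 7.97 to 171 ± 15.5), and L1cam, an axonal adhesion molecule, 3.23-fold (29.4 ± 4.57 to 131 ± 15.5). Rest itself gave 373, 344 and 395 at day 4 and 268, 249 and 225 at day 6 (-0.55 ± 0.10, adjusted p = 0.0023, named after its values were seen), and it and Nefh were the 2 called lower. Of the partners, Hdac2 was not called (0.19 ± 0.09, adjusted p = 0.19), nor was Sin3a (-0.32 ± 0.12, adjusted p = 0.085), which 6 alternatives called lower, with an adjusted p of 0.027 with median centring.

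**Figure D3:**
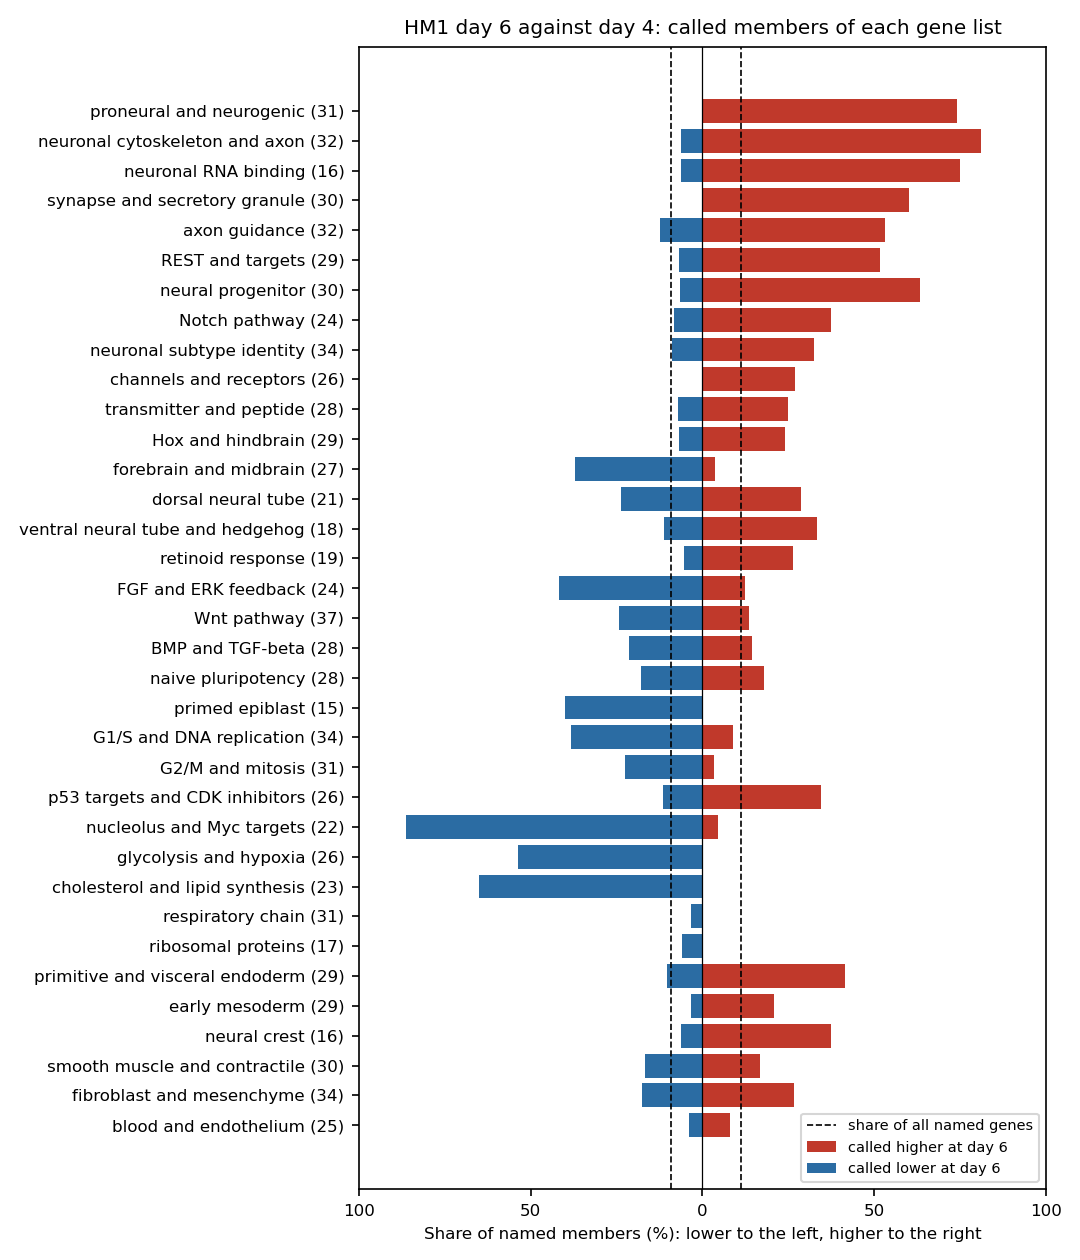
Share of the named members of 35 gene lists (in percent, number of named members in brackets) that were called higher (red, to the right) or lower (blue, to the left) at day 6 in HM1, with dashed lines at 11.1% and 9.09%, the shares of all named genes. The neuronal lists at the top extend far to the right, and the nucleolar, cholesterol and glycolysis lists far to the left. The lists were chosen with earlier results of these data known, so that their shares are no test. The dashed lines include dim genes, which are seldom called, while many lists hold mostly brighter ones.

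Most neural progenitor genes rose, but not Sox1. Of 30 named members 19 were called higher and 2 lower, Sox1 and the growth factor Ptn (median 0.63). Pax6, a factor of progenitors in the forebrain, hindbrain and spinal cord, read 293, 278 and 278 at day 4 and 995, 1061 and 1057 at day 6 (1.82 ± 0.10, adjusted p = 2.5e-07). Fabp7, the brain lipid-binding protein of radial glia, gave 1404, 1544 and 1159 at day 4 and 5418, 5195 and 5627 at day 6 (1.98 ± 0.12, adjusted p = 3.7e-07). Nes, the intermediate filament nestin, gave 209, 152 and 143 at day 4 and 449, 359 and 456 at day 6 (1.26 ± 0.14, adjusted p = 9.1e-05). The POU factors Pou3f2 and Pou3f3 rose 4.52-fold (18.7 ± 9.09 to 138 ± 20.5) and 5.28-fold (188 ± 28.7 to 1057 ± 79.7), and Pax7, a dorsal progenitor factor, 5.51-fold (45.3 ± 19 to 310 ± 22.8). Sox1, one of the earliest factors of the neural plate, fell instead, at 1371, 1449 and 1240 at day 4 and 514, 471 and 558 at day 6 (-1.37 ± 0.11, adjusted p = 4.4e-06). Its relatives Sox2 and Sox3 were not called, Sox2 at 2545, 2597 and 2421 at day 4 and 3008, 2807 and 3101 at day 6 (0.24 ± 0.09, adjusted p = 0.098). Sox2 was called higher under 7 alternatives, with an adjusted p of 0.0059 with a pseudocount of 64 and 0.021 after quantile normalization.

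Notch signalling lets a differentiating cell hold its neighbours as progenitors. In this pathway 9 of 24 members were called higher and 2 lower (median 0.30). Among its targets Hes5, a repressor of proneural genes in progenitors, stood at 613, 740 and 563 at day 4 and 2290, 2553 and 2239 at day 6 (1.87 ± 0.14, adjusted p = 3.8e-06). Nrarp, a feedback inhibitor of Notch, stood at 338, 378 and 311 at day 4 and 1197, 1138 and 1170 at day 6 (1.73 ± 0.11, adjusted p = 6.3e-07), and Hey1 rose 1.87-fold from 72.6 ± 15.4 to 148 ± 13.2. Dll3, a ligand-like protein that blunts Notch in the same cell, rose 2.73-fold from 127 ± 5.67 to 378 ± 55.6, and Id4, an inhibitor of helix-loop-helix factors, 3.11-fold from 574 ± 33.6 to 1820 ± 135. Jag1, a ligand, and Hes1, a target shared with other pathways, were the 2 called lower (-0.40 and -0.43, adjusted p = 0.015 and 0.05, named after their values were seen). That count was 0 without day 6 replicate 2 and 1 without any other single array. Rbpj, the DNA-binding partner of Notch, was not called (0.38 ± 0.14, adjusted p = 0.094), but was higher without day 4 replicate 1 (adjusted p 0.0035).

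Several forebrain and midbrain genes fell, and several anterior Hox genes rose. Of 27 forebrain and midbrain genes 1 was called higher and 10 lower (median -0.27), while of 29 Hox and hindbrain genes 7 were higher and 2 lower (median 0.12, with 6 higher and 4 lower once the arrays were centred). Hoxb2, a Hox gene of the hindbrain, read 38, 38.4 and 58.6 at day 4 and 582, 609 and 617 at day 6 (3.36 ± 0.14, adjusted p = 2.9e-08). Hoxa2, the Hox gene expressed farthest forward in the hindbrain, read 70.5, 61.7 and 64.8 at day 4 and 458, 399 and 457 at day 6 (2.47 ± 0.10, adjusted p = 2.8e-08), and Hoxb3 rose 4.26-fold from 6.8 ± 2.28 to 80.9 ± 7.39. Meis1, a cofactor of Hox proteins, rose from 134 ± 5.34 to 537 ± 54.1 (1.88 ± 0.10, adjusted p = 1.5e-07). Hoxa5, a Hox gene of a more posterior group, read 45, 82.9 and 51.2 at day 4 and 42.8, 44.4 and 39.3 at day 6 and was not called (-0.35 ± 0.20, adjusted p = 0.3). Hoxc8 and Hoxb9, chosen after their values were seen, reached at most 4.61 and 3.89 on any HM1 array and were not called (adjusted p = 0.79 and 0.67).

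In the anterior group, Otx1 and Otx2, homeobox factors of forebrain and midbrain, were at 63.5, 63.6 and 40.8 at day 4 and 1.78, 2.18 and 9.07 at day 6 for Otx1 (-1.82 ± 0.20, adjusted p = 7.3e-05) and at 332, 353 and 313 at day 4 and 79.2, 131 and 95.1 at day 6 for Otx2 (-1.59 ± 0.16, adjusted p = 3.1e-05). Fezf2, a forebrain zinc finger factor, went from 129 ± 19.4 to 22.9 ± 9.78 (-1.92 ± 0.19, adjusted p = 2.4e-05). En1, Fgf8 and Wnt1, which pattern the border of midbrain and hindbrain, fell, while En2 and Lmx1b were not called (0.20 and -0.44). Lmx1b was called lower under 3 alternatives. En1 read 87.4, 115 and 101 at day 4 and 10.6, 7.07 and 10.1 at day 6 (-2.21 ± 0.17, adjusted p = 3.6e-06), Fgf8 fell 2.66-fold from 56.6 ± 12.1 to 11.3 ± 4.56 and Wnt1 2.59-fold from 47.2 ± 15.1 to 8.22 ± 4.82. Gbx2, which sets that border from the hindbrain side and belongs to the hindbrain list, fell too, from 425 ± 35.8 to 126 ± 12.8 (-1.63 ± 0.11, adjusted p = 1.3e-06). Egr2, a factor of hindbrain segments, was the other member of that list called lower (-1.03 ± 0.24, adjusted p = 0.011), with an adjusted p of 0.14 with a pseudocount of 1. The 1 gene of the anterior list that rose was Irx3, which also marks more posterior neural tube, at 674, 682 and 639 at day 4 and 1713, 1696 and 1906 at day 6 (1.39 ± 0.09, adjusted p = 8e-07).

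Genes of the dorsal to ventral axis moved both ways. Of 21 dorsal genes 6 were called higher and 5 lower, Msx1, Msx3, Zic1, Zic5 and Bmp7 (median -0.10), and 3 were lower without day 4 replicate 2 or day 6 replicate 1. Dbx1, a factor of progenitors in the middle of the neural tube, was at 244, 209 and 245 at day 4 and 2134, 1761 and 1947 at day 6 (2.98 ± 0.12, adjusted p = 2.9e-08). Pax3, a dorsal progenitor factor, rose 2.73-fold from 132 ± 35.6 to 382 ± 49.3. Msx3 and Zic5, also dorsal, fell 3-fold (98.3 ± 14.4 to 22.1 ± 4.43) and 2.52-fold (297 ± 25.7 to 108 ± 0.736). In the ventral and hedgehog list 6 of 18 were called higher and 2 lower (median 0.17). Ptch1, the hedgehog receptor that hedgehog signalling itself induces, read 720, 618 and 641 at day 4 and 1461, 1151 and 1345 at day 6 (0.98 ± 0.11, adjusted p = 7.1e-05). Nkx6-1, a ventral progenitor factor, rose 2.15-fold from 18.7 ± 9.31 to 57 ± 6.22. Foxa2, a factor of the floor plate but not of it alone, rose 1.65-fold from 20.5 ± 5.2 to 44.4 ± 9.37. Cdon, a hedgehog co-receptor, fell 1.88-fold from 412 ± 31.3 to 214 ± 40.3, whereas Boc, its relative, rose 1.57-fold from 158 ± 18.1 to 256 ± 27.6. Gli2, a transcription factor of the pathway, was the other member called lower (-0.58 ± 0.12, adjusted p = 0.0052, named after its values were seen).

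Neuronal subtype genes were called higher in 11 of 34 members and lower in 3, Lhx2, Tal2 and Dmrt3 (median 0.35). Lhx1, a LIM factor of spinal and hindbrain interneurons, gave 7.84, 3.27 and 10.5 at day 4 and 151, 144 and 139 at day 6 (2.80 ± 0.15, adjusted p = 1.5e-07). Isl1, a LIM factor of motor and sensory neurons, gave 64.1, 69.1 and 71.3 at day 4 and 367, 352 and 335 at day 6 (2.12 ± 0.14, adjusted p = 7.6e-07), and Onecut2 rose 5.12-fold from 77.3 ± 12 to 461 ± 52.3. The 3 arrays of day 6 differed among themselves for Otp, a hypothalamic and spinal factor, at 51.4, 36.6 and 42.5 at day 4 and 404, 226 and 400 at day 6 (2.56 ± 0.21, adjusted p = 6e-06), and were still all above day 4. Ptf1a, a factor of inhibitory interneurons, stayed dim at 8.44, 10.7 and 3.01 at day 4 and 11.6, 7.6 and 9.19 at day 6 (0.13 ± 0.17, adjusted p = 0.7). Calb2, calretinin, was not called either (0.39 ± 0.27, adjusted p = 0.41).

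Retinoic acid binding and breakdown genes rose, while the list as a whole was mixed, with 5 of 19 members called higher and 1 lower (median 0.12). Crabp1, a cytoplasmic retinoic acid binding protein, read 991, 1149 and 889 at day 4 and 5800, 5829 and 6078 at day 6 (2.54 ± 0.11, adjusted p = 4.5e-08). Crabp2, which carries the ligand to its receptors, read 2223, 2335 and 1900 at day 4 and 5218, 5055 and 5082 at day 6 (1.25 ± 0.10, adjusted p = 6.5e-06). Cyp26b1, which degrades retinoic acid, read 48.1, 34.6 and 32.1 at day 4 and 301, 304 and 304 at day 6 (2.57 ± 0.12, adjusted p = 6.7e-08). These 3 kept their calls under every alternative. The other 2 called higher, Aldh1a3 and Stra8, were dim and lost their calls under several, and Rbp4, the 1 called lower, did so too. The count of 5 was 3 without day 4 replicate 1, day 4 replicate 3, day 6 replicate 1 or day 6 replicate 2. The count of 1 was 0 without day 4 replicate 2 or 3 and 2 without day 4 replicate 1 or day 6 replicate 1, and with the arrays centred on their medians 3 were higher and 3 lower.

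FGF signals and their feedback genes were lower at day 6 in 10 of 24 members and higher in 3, Fgfr2, Fgfr3 and Dusp4 (median -0.37). Fgf15, an FGF of the anterior neural tube, read 234, 230 and 259 at day 4 and 63.6, 63.2 and 47.6 at day 6 (-1.80 ± 0.13, adjusted p = 2.3e-06). Il17rd, a feedback inhibitor of FGF receptors, fell 2.64-fold from 390 ± 33.1 to 138 ± 14.7. Rises came from Fgfr3, an FGF receptor of progenitors and glia, from 186 ± 33.7 to 789 ± 77.4 (2.00 ± 0.13, adjusted p = 8e-07), and Dusp4, a phosphatase of ERK, from 183 ± 16.5 to 576 ± 33.2 (1.58 ± 0.12, adjusted p = 4.3e-06).

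Of the Wnt pathway 5 of 37 members were called higher, Wnt7a, Wnt7b, Sfrp2 and the receptors Fzd1 and Fzd3, and 9 lower (median -0.20, with 4 higher and 14 lower once the arrays were centred). Lef1 and Sp5, a nuclear effector and a direct target of beta-catenin, fell 3.28-fold (162 ± 23.6 to 38.4 ± 6.19) and 3.05-fold (72.4 ± 9.05 to 13.8 ± 8.29). The Wnt ligands Wnt7a and Wnt7b, made by neural progenitors, rose. Wnt7a was at 19.5, 17.6 and 6.47 at day 4 and 276, 206 and 284 at day 6 (3.17 ± 0.19, adjusted p = 4.1e-07), and Wnt7b rose 2.9-fold from 61.1 ± 9.15 to 210 ± 44.5. Sfrp2, a secreted Wnt antagonist, read 775, 985 and 778 at day 4 and 3087, 2880 and 2743 at day 6 (1.77 ± 0.11, adjusted p = 5.8e-07). In the BMP and TGF-beta list 4 of 28 were higher, Bmp2, Bmp4, Tgfb2 and Id4, and 6 lower (median 0.20). Fst, follistatin, which traps activins, went from 601 ± 8.65 to 229 ± 12.4, and Bambi, a decoy receptor, from 161 ± 21.3 to 73.9 ± 10.2, falls of 2.52-fold and 1.97-fold. Bmp4 rose 1.89-fold from 32.7 ± 4.73 to 76.1 ± 11.6 while Bmp7 fell 1.69-fold from 81.7 ± 9.47 to 41.8 ± 3.49.

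Pluripotency genes gave no common direction. Of 28 naive pluripotency genes 5 were called higher and 5 lower, the latter Nanog, Eras, Sall4, Gdf3 and Zscan10 (median 0.09, and -0.02 with the arrays centred on their medians). Pou5f1, the Oct4 factor that holds stem cells undifferentiated, read 335, 220 and 468 at day 4 and 318, 308 and 298 at day 6 (-0.08 ± 0.23, adjusted p = 0.89). Its 3 day 4 arrays spanned the whole range of day 6, and a change within that spread was not detectable. Zscan10, an Oct4 partner, fell from 178 ± 12.8 to 78.8 ± 5.32 (-1.04 ± 0.14, adjusted p = 0.00025), and Sall4 from 1505 ± 50.5 to 845 ± 44.6 (-0.82 ± 0.09, adjusted p = 8.1e-05). Nanog gave 217, 219 and 262 at day 4 and 172, 169 and 139 at day 6 (-0.50 ± 0.12, adjusted p = 0.014), and missed the threshold in the HM1 arrays alone (adjusted p 0.051), without day 4 replicate 3 (0.059) and without day 6 replicate 3 (0.056).

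Dppa5a, an RNA-binding protein of pluripotent cells, rose in contrast, at 642, 680 and 630 at day 4 and 1221, 1548 and 1286 at day 6 (1.03 ± 0.11, adjusted p = 4.2e-05). Tdgf1, a Nodal co-receptor, rose from 58.2 ± 17.6 to 99.7 ± 1.55 (0.67 ± 0.15, adjusted p = 0.011). The other 3 called higher were Zfp42, Dppa3 and Dppa2 (0.60, 0.60 and 0.59, the last 2 named after their values were seen). The count of 5 higher was 2 without day 6 replicate 1 and 3 without day 4 replicate 1, day 4 replicate 3 or day 6 replicate 3. The count of 5 lower was 3 without day 4 replicate 3 or day 6 replicate 3. Genes of the primed epiblast were called lower in 6 of 15 members and higher in 0 (median -0.54). Dnmt3b, a de novo DNA methyltransferase, gave 2037, 1944 and 2174 at day 4 and 820, 1187 and 757 at day 6 (-1.17 ± 0.18, adjusted p = 0.001). Lin28a, an RNA-binding protein that blocks let-7 maturation, gave 4965, 5218 and 3838 at day 4 and 2217, 2173 and 2573 at day 6, a 1.99-fold fall (adjusted p = 0.00025). Igfbp2, an IGF-binding protein, fell 2.96-fold from 2190 ± 205 to 736 ± 133, and Pou3f1, a factor of the late epiblast and neural plate, 1.96-fold from 355 ± 39.3 to 173 ± 23.3.

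Several genes of DNA replication fell. In the G1/S list 13 of 34 were called lower and 3 higher, Ccnd2, Ccnd3 and Cdk6 (median -0.28). Ung, which removes uracil from DNA, read 486, 573 and 578 at day 4 and 273, 308 and 266 at day 6 (-0.91 ± 0.11, adjusted p = 0.00017), and Mcm10, Cdt1 and Cdc6, which load or start the replicative helicase, fell 1.67-fold, 1.61-fold and 1.55-fold. Pcna, the sliding clamp, was not called at 8861, 8875 and 7641 at day 4 and 7557, 7377 and 7281 at day 6 (-0.19 ± 0.10, adjusted p = 0.29). Ccnd2, the D-type cyclin of neural progenitors, rose against the list, at 1129, 1230 and 1108 at day 4 and 3082, 3210 and 3173 at day 6 (1.44 ± 0.10, adjusted p = 1.3e-06). Of 31 mitotic genes 7 were lower and 1 higher (median -0.19), and 3 were lower without day 6 replicate 1 or replicate 2 and 4 without day 4 replicate 2 or replicate 3. Cdk1, the mitotic kinase, fell 1.33-fold from 2092 ± 115 to 1564 ± 64.3, and Top2a was not called (-0.20 ± 0.12, adjusted p = 0.32). The 1 gene called higher was Prc1 (0.45 ± 0.12, adjusted p = 0.025), which was not called with median centring or without 4 of the 6 arrays in turn.

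Several inhibitors of cyclin-dependent kinases rose. Of 26 p53 targets and such inhibitors 9 were called higher and 3 lower, Pmaip1, Perp and Gadd45a (median 0.10, with 6 higher and 4 lower once the arrays were centred). Cdkn1c, the imprinted inhibitor p57, read 854, 828 and 734 at day 4 and 2532, 2450 and 2723 at day 6 (1.65 ± 0.11, adjusted p = 1.2e-06). Cdkn1a, the inhibitor p21, rose 1.67-fold from 746 ± 72.6 to 1253 ± 118, Cdkn2c 1.66-fold from 42.3 ± 9.95 to 80.1 ± 10.1 and Btg1, an antiproliferative factor, 1.66-fold from 1247 ± 90.1 to 2078 ± 132. The direct p53 targets Ccng1 and Zmat3 were not called (0.11 ± 0.10 and -0.10 ± 0.09, adjusted p = 0.55 and 0.58), and Perp fell 1.53-fold from 241 ± 13.7 to 152 ± 9.25.

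Most genes of ribosome biogenesis fell. Of 22 nucleolar genes and Myc targets 19 were called lower and 1 higher (median -0.71). Cad, which starts pyrimidine synthesis, read 1302, 1178 and 1116 at day 4 and 496, 477 and 565 at day 6 (-1.20 ± 0.13, adjusted p = 6.6e-05). Polr1b, a subunit of RNA polymerase I, read 384, 379 and 394 at day 4 and 192, 190 and 208 at day 6 (-0.92 ± 0.09, adjusted p = 1.9e-05), and Nop2 and Dkc1, which modify ribosomal RNA, both fell 1.85-fold, from 579 ± 55.1 to 307 ± 37.5 and from 2093 ± 110 to 1125 ± 40. Mycn, the Myc family member of neural progenitors, gave 1392, 1515 and 1384 at day 4 and 773, 754 and 783 at day 6 (-0.88 ± 0.10, adjusted p = 9.2e-05). The 1 member called higher was Mycl (0.45 ± 0.10, adjusted p = 0.0071), named after its values were seen. Of the ribosomal protein genes 0 of 17 were called higher and 1 lower, Rps27l (median -0.15), and that count was 0 without day 4 replicate 2 or day 6 replicate 1 and 2 without day 4 replicate 3.

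Glycolysis and hypoxia genes fell in 14 of 26 members with 0 called higher (median -0.41). Slc2a3, the neuronal and embryonic glucose transporter, gave 7365, 6294 and 5924 at day 4 and 2254, 2293 and 2114 at day 6 (-1.54 ± 0.13, adjusted p = 6e-06). Hk2, which phosphorylates glucose, gave 1007, 974 and 1067 at day 4 and 443, 464 and 462 at day 6 (-1.13 ± 0.10, adjusted p = 1.1e-05). Pfkl, a phosphofructokinase, fell 2.31-fold (1348 ± 2.76 to 578 ± 88.6), Ldha, lactate dehydrogenase, 2.04-fold (6587 ± 887 to 3212 ± 267) and Slc16a3, a lactate exporter, 3.35-fold (172 ± 16.8 to 40.1 ± 6.26). Of the respiratory chain genes 0 of 31 were called higher and 1 lower (median -0.07). It was Uqcrc1 (-0.28 ± 0.09, adjusted p = 0.047), whose call was lost whichever of the 6 arrays was left out. Uqcrb, a subunit of complex III, read 8337, 9180 and 7954 at day 4 and 7840, 8290 and 8100 at day 6 (-0.07 ± 0.10, adjusted p = 0.72), with the days overlapping.

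Sterol and fatty acid synthesis genes fell in 15 of 23 members with 0 called higher (median -0.46). Scd1, a fatty acid desaturase, read 1438, 1583 and 1342 at day 4 and 590, 627 and 700 at day 6 (-1.17 ± 0.10, adjusted p = 9e-06). Lss and Fdps, enzymes of the sterol pathway, fell 2.09-fold (487 ± 18.8 to 224 ± 7.77) and 1.68-fold (2328 ± 35.8 to 1383 ± 27.2), and Fasn, fatty acid synthase, 1.71-fold (2329 ± 220 to 1351 ± 86.4). Hmgcs1, which makes the precursor of mevalonate, was not called (-0.28 ± 0.10, adjusted p = 0.072) but was called lower under 8 alternatives, with an adjusted p of 0.017 with median centring.

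**Figure D4:**
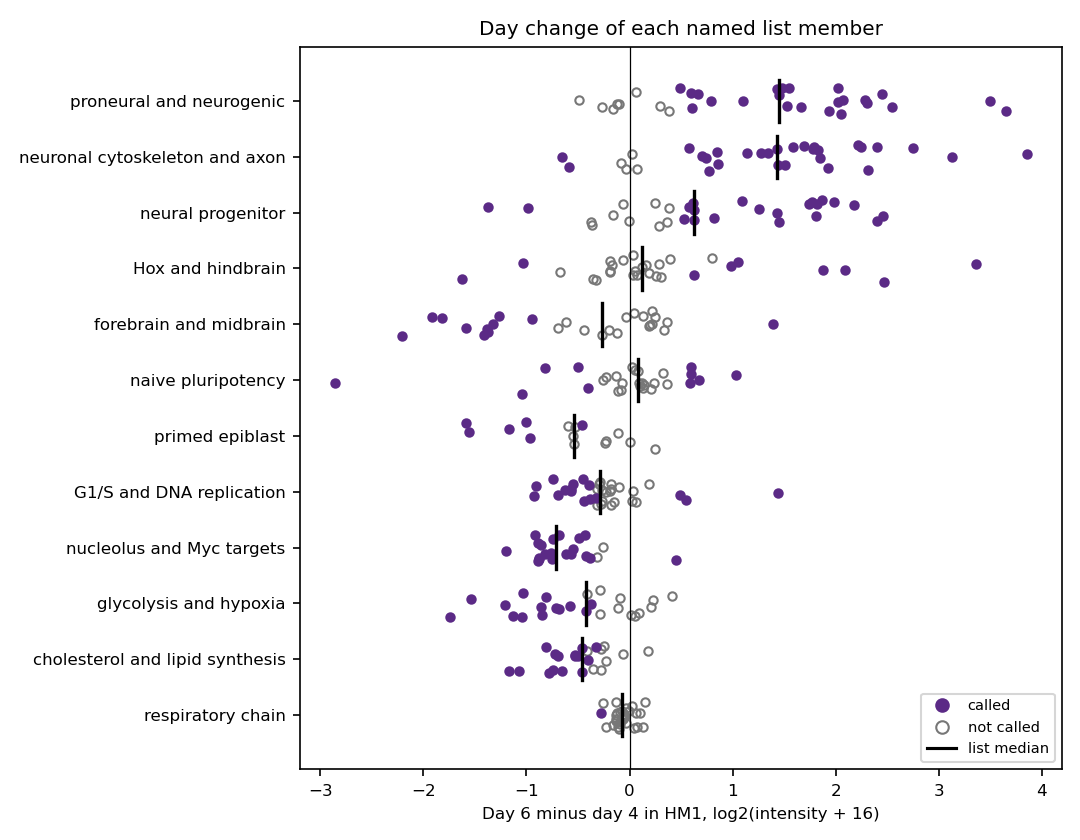
Day change in HM1 (day 6 minus day 4 of log2(intensity + 16), horizontal axis) of each named member of 12 gene lists. Filled points are called members, open circles are not, vertical bars are list medians and the vertical spread within a list has no meaning. The medians run from 1.45 for the proneural list to -0.71 for the nucleolar list, and the respiratory chain stays near 0 with a median of -0.07.

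Markers of other cell types that a differentiating culture could hold were read beside these changes. Primitive and visceral endoderm markers were called higher in 12 of 29 members and lower in 3, Apoe, Lrp2 and Rbp4 (median 0.38), and their summed intensity was 5481 to 6027 on the day 4 arrays and 6211 to 6606 on the day 6 arrays. Sox17, an endoderm factor, read 25.7, 25.7 and 10.8 at day 4 and 50.6, 73.6 and 67 at day 6 (1.14 ± 0.17, adjusted p = 0.00065). The basement membrane collagens Col4a1 and Col4a2 rose 1.97-fold (482 ± 12.9 to 969 ± 101) and 1.88-fold (234 ± 39.9 to 453 ± 59.1). Cubn and Fxyd3 were called higher too (0.93 and 1.15), while Lamb1 and Lamc1 were not called (-0.22 and -0.12). Lrp2, an endocytic receptor of visceral endoderm and neuroepithelium, fell from 1070 ± 215 to 412 ± 14.5. Afp, alpha-fetoprotein, and Hnf4a, chosen after their values were seen, reached at most 7.78 and 18.7 on any HM1 array, and neither was called (adjusted p = 0.33 and 0.92). The part of such cells in the other changes was not tested.

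Fibroblast and mesenchyme markers were called higher in 9 of 34 members and lower in 6 (median -0.01), and median centring gave 7 higher and 9 lower. Their summed intensity went from 4746 to 5132 at day 4 to 6233 to 7165 at day 6. Anxa1, an annexin, gave 140, 192 and 167 at day 4 and 377, 419 and 441 at day 6 (1.24 ± 0.14, adjusted p = 6.2e-05), and Col3a1, a fibrillar collagen, rose 2.81-fold from 16.1 ± 8.65 to 72.5 ± 13.4. Zeb1, a repressor of epithelial genes that neural progenitors carry too, rose 2.15-fold from 360 ± 67.5 to 785 ± 21.5, while Thy1 and Mmp2 fell 2.06-fold (42.6 ± 7.54 to 12.3 ± 2.3) and 2.06-fold (200 ± 3.65 to 89.5 ± 15.5). Smooth muscle and contractile genes were called higher in 5 of 30, Acta2, Actc1, Actg2, Mylk and Lmod1, and lower in 5, Acta1, Tagln2, Myh9, Tpm2 and Vcl (median -0.05), and 3 were lower without day 6 replicate 1. The call of Actc1 was lost whichever of the 6 arrays was left out and had an adjusted p of 0.21 with a pseudocount of 1. Acta2, smooth muscle actin, read 1460, 1860 and 1505 at day 4 and 2833, 2702 and 3133 at day 6 (0.84 ± 0.12, adjusted p = 0.00051), and Tpm2, a tropomyosin, fell 2.13-fold from 628 ± 39.9 to 289 ± 58. The list's summed intensity overlapped between the days, at 30900 to 33929 and 32504 to 35800.

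Of the early mesoderm list 6 of 29 were called higher and 1 lower (median 0.00, and -0.10 with the arrays centred). The higher ones were Lhx1 and Isl1, which neurons also use, Bmp4, Foxc1, Gata6 and Pdgfra, and Gata6 and Pdgfra lost their calls under 8 and 11 alternatives, Pdgfra whichever of the 6 arrays was left out. The lower one was Foxc2 (-0.36, adjusted p = 0.028, named after its values were seen), and its call was lost whichever of the 6 arrays was left out. Neural crest markers were higher in 6 of 16 and lower in 1, Msx1 (-0.54, adjusted p = 0.029, median of the list 0.24), a count of 0 without day 4 replicate 2, day 6 replicate 1 or day 6 replicate 2 and of 2 without day 6 replicate 3. Tfap2b, a crest and interneuron factor, gave 15.7, 10.6 and 15.4 at day 4 and 91, 80.3 and 128 at day 6 (1.94 ± 0.16, adjusted p = 6.1e-06), and Ngfr, the low-affinity neurotrophin receptor, rose 3.12-fold from 25.8 ± 0.88 to 115 ± 8.01. Sox10, the defining factor of migrating crest and oligodendrocytes, stayed at 6.67 to 25.3 and was not called (adjusted p = 0.55, chosen after its values were seen). Epithelial genes were higher in 3 of 27, Krt7, Tfap2a and Tfap2b, and lower in 5, Cdh1, Epcam, Cldn7, Perp and Esrp1 (median -0.10). Cdh1, E-cadherin, read 584, 650 and 624 at day 4 and 376, 426 and 353 at day 6 (-0.67 ± 0.12, adjusted p = 0.0026), and Epcam fell 1.87-fold from 338 ± 53.2 to 175 ± 49.8, while the keratins Krt8 and Krt18 were not called (-0.27 ± 0.18 and -0.03 ± 0.13, adjusted p = 0.39 and 0.93).

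Glial genes were higher in 4 of 19, Aqp4, Slc1a2, Pdgfra and Fabp7, and lower in 1, Aldoc (median -0.06), and the count of 4 was 2 without day 4 replicate 1, day 6 replicate 1 or day 6 replicate 3. The summed intensity of the list was 1934 to 2336 at day 4 and 5837 to 6349 at day 6. Fabp7, shared with the progenitor list, made up 1159 to 1544 of it at day 4 and 5195 to 5627 at day 6. Slc1a2, a glutamate transporter, went from 35.4 ± 6.23 to 111 ± 1.96 (1.32 ± 0.11, adjusted p = 6.1e-06). Aqp4 rose by 0.80, a call lost under 4 alternatives. Of the members not called, Cnp and Mbp were the brightest (-0.34 and -0.14). Gfap, Olig1 and Olig2, the defining genes of astrocytes and oligodendrocytes, reached at most 17.8 on any HM1 array and were not called (adjusted p = 0.67, 0.51 and 0.25, chosen after their values were seen). Blood and endothelium markers were higher in 2 of 25, Lmo2 and Tal1, and lower in 1, Egfl7 (median 0.05). Median centring gave 1 higher and 3 lower (median -0.06), with Tal1 no longer called (adjusted p 0.06). Their summed intensity was 310 to 346 at day 4 and 311 to 394 at day 6. That count of 2 was 1 without day 4 replicate 1 or replicate 2. Trophoblast genes were higher in 1 of 12, Krt7, and lower in 0 (median -0.04), and Krt7 was not called without day 4 replicate 2, day 4 replicate 3, day 6 replicate 2 or day 6 replicate 3.

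Of 32 cadherins, integrins and matrix genes 10 were called higher and 6 lower (median 0.08, and -0.03 with the arrays centred), and 3 were lower without day 4 replicate 1 or day 6 replicate 2. Pcdh8, a protocadherin, read 562, 551 and 510 at day 4 and 2747, 2937 and 2857 at day 6 (2.36 ± 0.09, adjusted p = 2.7e-08). Pcdh17 and Pcdh9 rose 4.5-fold (39.9 ± 14.2 to 232 ± 32.9) and 2.94-fold (19.4 ± 6.31 to 87.6 ± 14.2), and Itgb5, an integrin subunit, fell 2.05-fold (117 ± 9.44 to 49.3 ± 8.16). Chromatin genes were higher in 7 of 28 and lower in 3, Dnmt3b, Uhrf1 and Hdac1 (median 0.01, and -0.09 with the arrays centred). Among them Smarcd3 and Actl6b, subunits of the BAF remodelling complex of neurons, rose 2.16-fold (58 ± 1.56 to 144 ± 14) and 2.63-fold (4.7 ± 4.81 to 39.1 ± 15.5), and Ezh2, the Polycomb methyltransferase, was not called (-0.02 ± 0.11, adjusted p = 0.94).

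Of 29 imprinted genes 5 were higher, Peg3, Sgce, Cdkn1c, Nnat and Nap1l5, and 5 lower, Meg3, Mirg, Magel2, Zdbf2 and Impact (median 0.02), and 3 were lower without day 6 replicate 1. Nnat, neuronatin, gave 1876, 2544 and 1971 at day 4 and 4979, 3767 and 4857 at day 6 (1.09 ± 0.17, adjusted p = 0.00077), Nap1l5 rose 2.54-fold from 49.9 ± 8.27 to 152 ± 26.1, and the maternally expressed noncoding RNA Mirg fell from 220 ± 6.07 to 104 ± 7.7 (-0.98 ± 0.11, adjusted p = 6.5e-05). Heat shock and ER stress genes were higher in 2 of 29, Ddit3 and Dnajb9, and lower in 7 (median -0.21), 4 of them without day 4 replicate 2 or day 6 replicate 2, and the chaperone Hspa8 was not called (-0.14 ± 0.12, adjusted p = 0.55). Metallothionein and oxidative stress genes were higher in 1 of 18, Mt3, and lower in 7 (median -0.28). The count of 7 was 4 without day 6 replicate 1, and among the fits without 1 array Mt3 was called only in that without day 6 replicate 2. Gsta4, a glutathione transferase, fell 1.99-fold from 3076 ± 313 to 1533 ± 101. Immediate early genes were higher in 5 of 20, Jun, Jund, Egr1, Egr3 and Btg2, and lower in 2, Egr2 and Ier2 (median -0.17), but median centring gave 2 higher and 5 lower. The count of 5 was 3 without day 4 replicate 1, 1 without day 4 replicate 2 and 2 without any other single array, and the count of 2 was 1 without day 4 replicate 1 or 2 or day 6 replicate 1 or 2. Huntingtin and its partners were called in 1 of 13 members, the palmitoyltransferase gene Zdhhc17, which was higher. Htt itself read 161, 158 and 138 at day 4 and 148, 107 and 140 at day 6 (-0.20 ± 0.13, adjusted p = 0.38), and Hprt, defective in HM1, 22, 22.4 and 26.6 at day 4 and 19.1, 27.6 and 26.4 at day 6 (0.02 ± 0.14, adjusted p = 0.95), with overlapping days in both genes. Where the Hprt probe set lies relative to the lesion was not examined.

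Many microRNAs are cut from transcripts of host genes, which these arrays measure while the mature microRNAs are not. Of 461 named genes with a RefSeq hairpin inside them on the same strand, 69 were called higher and 40 lower, where 11.1% and 9.09% of all named genes were. The share lower was near that of all genes and the share higher somewhat above it. Hosts were not tested as a set, and these shares take no account of how bright the hosts are. The hosts below were chosen after their values were seen, for microRNAs known in the nervous system, and the seed (bases 2 to 8) is in capitals. The noncoding RNA C130071C03Rik, which holds the Mir9-2 hairpin (GRCm38.p6, chr13:83738814-83738885, plus strand), read 11.1, 18.6 and 14.8 at day 4 and 263, 250 and 211 at day 6 (3.06 ± 0.15, adjusted p = 8.2e-08). The Slit ligand gene Slit2 holds Mir218-1 (chr5:48223942-48224051, plus strand) and read 148, 120 and 113 at day 4 and 332, 272 and 278 at day 6 (1.12 ± 0.12, adjusted p = 6.3e-05). Ptprn2, a phosphatase-like protein of secretory granules, holds Mir153 (chr12:117250817-117250885, plus strand) and read 144, 118 and 113 at day 4 and 283, 282 and 330 at day 6 (1.16 ± 0.12, adjusted p = 3.7e-05). All 3 hosts were higher on every day 6 array. Nup93, a nuclear pore protein that holds Mir138-2 (chr8:94324311-94324381, plus strand), fell, at 1205, 1332 and 1206 at day 4 and 896, 803 and 831 at day 6 (-0.56 ± 0.10, adjusted p = 0.0017). The mature sequences, from RefSeq, have different seeds.
miR-9-5p in C130071C03Rik: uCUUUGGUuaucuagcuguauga
miR-9-3p in C130071C03Rik: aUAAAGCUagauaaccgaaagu
miR-218-5p in Slit2: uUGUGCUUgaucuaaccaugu
miR-153-3p in Ptprn2: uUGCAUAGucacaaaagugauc
miR-138-5p in Nup93: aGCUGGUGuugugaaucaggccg

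The CAG150 arrays allow the HM1 change to be set against that of a second line over the same days. Across the 18193 genes the 2 changes had a correlation of 0.77, and 0.89 over the genes called in HM1, where genes are no independent replicates and the arrays of the 2 lines are separate. Of the 3677 genes called in HM1, 3485 had the same sign in CAG150. The difference between the 2 changes, tested as an interaction in the same fit, was called for 181 genes (0.995%), 103 with the higher change in HM1 (0.566%) and 78 with the lower (0.429%). Those counts ranged from 34 to 249 and from 27 to 194 over the alternatives.

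Dbx1 had the largest positive difference among these genes. It rose by 2.98 in HM1 and changed by 0.10 in CAG150, a difference of 2.88 ± 0.17 (SE) with an adjusted p of 2.9e-05. Neurog1 and Wnt7a rose in both lines and more in HM1, by 1.93 ± 0.24 (adjusted p = 0.003) and 1.85 ± 0.27 (adjusted p = 0.0075). Hbegf, an EGF family ligand, and Tecrl, a reductase-like membrane protein, rose in HM1 at 77.8, 66.8 and 73.8 at day 4 and 272, 252 and 209 at day 6 and at 6.1, 5.99 and 3.88 at day 4 and 94.6, 66.5 and 77.7 at day 6, with changes of -0.51 and 0.13 in CAG150. Apcdd1, a Wnt inhibitor, was not called in HM1 (-0.05 ± 0.22, adjusted p = 0.94) and had a change of -1.87 in CAG150.

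Other genes rose more in CAG150. Ptf1a changed by 0.13 in HM1 and 2.57 in CAG150 (difference -2.44 ± 0.24, adjusted p = 0.00085). Cacna2d1 changed by 0.19 and 2.58 (difference -2.39 ± 0.19, adjusted p = 0.00015). The brightest probe set of Stmn2 changed by -0.03 and 2.12 (difference -2.15 ± 0.14, adjusted p = 4e-05). Its mean intensity was 2108 in HM1 and 607 in CAG150 at day 4, and 2064 and 2691 at day 6. The lines thus stood farther apart at day 4 than at day 6. Lhx2, a LIM factor of forebrain progenitors, fell in HM1 at 201, 243 and 196 at day 4 and 76.2, 64.5 and 75.3 at day 6 and had a change of 1.01 in CAG150 (difference -2.39 ± 0.17, adjusted p = 6.5e-05). Rspo3, a Wnt agonist, fell in HM1 from 22.3 ± 1.18 to 8.95 ± 1.95 and had a change of 1.75 in CAG150. Tfap2b rose in both, by 1.94 in HM1 and 4.17 in CAG150 (difference -2.23 ± 0.22, adjusted p = 0.00093).

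**Figure D5:**
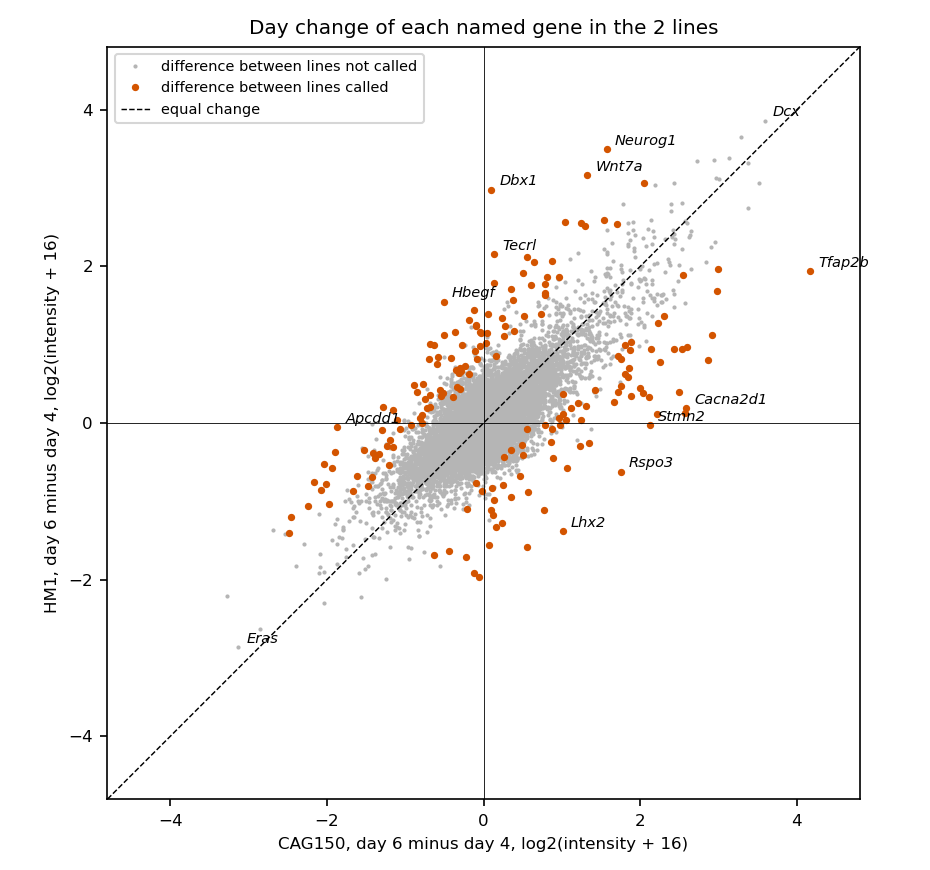
Day change (day 6 minus day 4 of log2(intensity + 16)) of each named gene in HM1 (vertical axis) against that in CAG150 (horizontal axis), with a dashed line where both are equal. The 181 genes whose difference between the lines was called are orange, with Dbx1 (2.98 in HM1, 0.10 in CAG150) far above the line and Lhx2 and Tfap2b below it.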

How the data were processed

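RNA of 12 samples, 3 for each of 4 groups of line and day, was measured on Affymetrix mouse expression arrays. The authors deposited 1 linear intensity per probe set and array, scaled so that the mean after trimming 2% of values at each end is 150 on every array, as read from the values. No source used here names the software behind them, and raw array files were not used. From the deposited intensities log2(intensity + 16) was computed, 64 control probe sets were left out, and limma 3.58.1 in R 4.3.3 was fitted to 45037 probe sets with 1 mean per line and day. All 12 arrays share 1 estimate of the spread, with 8 residual and 4.2 prior degrees of freedom. Benjamini-Hochberg adjustment ran over all 45037 probe sets, no filter on dim values was applied, and the call was at an adjusted p under 0.05. The code was tested on simulated data.

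Symbols came from the platform annotation. Exactly 1 symbol was given to 34945 probe sets, several to 932 and none to 9160, and only the first were named, which gave 18193 genes. The members and the 45 gene lists, with 1158 of 1237 entries named, were chosen with earlier results of these data known. Named genes are the 12 largest called rises and 12 largest called falls with no overlap of the days, 9 genes taken whatever their values (Pou5f1, Nanog, Sox1, Pax6, Nes, Tubb3, Map2, Htt and Hprt), up to 6 called members and 2 bright uncalled members of each list, and the 6 largest differences between the lines each way. Other names, and the members behind counts of 5 or fewer, were added after their values were seen. Promoters and microRNAs are from RefSeq tables of GRCm38.p6. The alternatives tried were other normalizations, pseudocounts, filters, probe set rules, a trended prior, the HM1 arrays alone, the replicate number as a block, and each HM1 array left out.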

Additional observations from a re-analysis of the deposited data

Results flagged for a closer look

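Of the named genes, 48 had a day change in HM1 that differed from the day change in CAG150 in limma's test of the difference itself (adjusted p under 0.05 over 45037 probe sets). Many named genes were taken for a large HM1 change, and the 6 largest differences each way for this test itself. The 48 are therefore no measure of how common such differences were. Over all named genes 181 of 18193 (0.995%) were called. The values are the HM1 change minus the CAG150 change on the log2 scale, 3 arrays in each of 4 groups. Among neurogenic, Notch and regional genes, the HM1 change exceeded that of CAG150 in Neurog1 (1.93), Dbx1 (2.88), Isl1 (1.57), Otp (1.52), En2 (1.48), Hes5 (1.06) and Irx3 (0.66). The same held for signalling and retinoid genes, namely Wnt7a (1.85), Hbegf (2.06), Apcdd1 (1.83), Il17rd (1.08), Ednrb (1.02), Sfrp2 (0.98), Tgfb2 (0.90) and Crabp1 (0.82). Among matrix, contractile and epithelial genes it exceeded that of CAG150 in Foxc1 (1.69), Acta2 (1.42), Anxa1 (1.34), Postn (1.27), Fxyd3 (1.11), Col4a1 (1.03), Lamb1 (0.97) and Krt18 (0.89). A higher change in HM1 was also found for Tecrl (2.03), Ccnd2 (1.56), Chac1 (1.22) and Chrna3 (0.84). Such a higher change need not be a rise in HM1. Il17rd and Chac1 were called lower in HM1 (-1.40 and -0.86), and En2, Apcdd1, Lamb1 and Krt18 were not called there. The HM1 change was below that of CAG150 for the neuronal genes Cacna2d1 (-2.39), Stmn2 (-2.15), Calb2 (-2.11), Slc17a6 (-1.63), Scn3b (-0.80) and Nrcam (-0.63). Regional and crest factors with a lower change in HM1 were Ptf1a (-2.44), Lhx2 (-2.39), Tfap2b (-2.23), Msx3 (-2.13), Tfap2a (-2.05), Fezf2 (-1.80), Zic5 (-1.49), Lmx1b (-1.32) and Gbx2 (-1.19). Signalling and adhesion genes with a lower change in HM1 were Rspo3 (-2.37), Fgfbp1 (-1.91), Igfbp2 (-1.63), Lef1 (-1.48), Cdh1 (-1.14) and Id2 (-1.02). Nor need a lower change be a fall, since Slc17a6, Scn3b, Tfap2a and Tfap2b were called higher in HM1. In some of the genes above the lines already stood apart at day 4. Mean intensities at day 4 were 2190 in HM1 and 387 in CAG150 for Igfbp2, and 639 and 1779 for Hes5. Fgfbp1 was dim in CAG150, at 12.6 on day 4 and 11.4 on day 6, against 280 and 60.8 in HM1. The change was called in both lines in opposite directions for Msx3 (-1.58 in HM1 and 0.55 in CAG150), Acta2 (0.84 in HM1 and -0.58 in CAG150), Foxc1 (1.01 in HM1 and -0.68 in CAG150), Cdh1 (-0.67 in HM1 and 0.47 in CAG150), Hbegf (1.55 in HM1 and -0.51 in CAG150), Lhx2 (-1.38 in HM1 and 1.01 in CAG150) and Rspo3 (-0.62 in HM1 and 1.75 in CAG150).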

How the results depend on the processing

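Of the 333 named genes, 0 of the 243 called and 26 of the 90 not called changed the sign of their day change under at least 1 alternative. Of those called, 202 kept their call throughout and 41 lost it under at least 1 alternative, and 28 of the 90 not called gained one. Leaving out 1 HM1 array gave 1558 to 1734 genes higher and 1142 to 1379 lower, and the arrays of HM1 alone gave 2642 called genes, 2574 of them shared with the 3677. Median centring raised the count of lower probe sets from 2625 to 3968. The counts of genes whose change differed between the lines, 103 higher and 78 lower in HM1, moved most. They were 249 and 194 with 1 probe set per gene above the 40th percentile, 179 and 134 with a filter at the 60th percentile, 186 and 136 with the mean of the probe sets, 34 and 27 with a pseudocount of 1, 216 and 184 with a pseudocount of 64, and 60 to 76 and 52 to 58 without 1 HM1 array. The cause of these shifts was not tested. The filters and probe set rules changed the number of features tested, and leaving out an array changed the number of samples. The pseudocounts changed neither.

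With the replicate number as a block, 2946 genes were called, 2847 of them among the 3677, and 34 and 32 differed between the lines. Deviations of same-numbered HM1 arrays from their day means had correlations of 0.11, -0.08 and -0.17 for replicates 1, 2 and 3, so that the numbers, which the titles but not the day 6 descriptions give, were not taken as pairs. Precision is limited by 3 arrays a group of 1 line. Of the called genes 197 have a mean below the 40th percentile of signal, an intensity of about 11.9, where the pseudocount sets much of the fold.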

Other observations

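The groups below were drawn up after their values were seen, so that their counts carry no test. Of all named genes 11.1% were called higher and 9.09% lower. Kinesins, counted in the same way, had 7 of 37 called higher and 1 lower (median 0.05). With the arrays centred on their medians 5 kinesins were higher and 4 lower. A group of 16 genes that host small nucleolar RNAs was picked by symbol (Snhg genes, Gas5 and Taf1d) and leaves out other such hosts. Of these 16 genes 0 were called higher and 10 lower (median difference -0.52). Members called lower included Snhg3 (-1.90), Snhg4 (-1.35), Gas5 (-0.64) and Snhg1 (-0.62). Snhg3 had intensities of 422, 647 and 605 at day 4 and 139, 145 and 123 at day 6 (adjusted p = 6.8e-06). With 1 HM1 array left out 7 to 10 were lower.

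Of 35 protocadherins, which are adhesion molecules, 20 were called higher and 2 lower (median 0.69), and 17 to 19 were higher with 1 HM1 array left out. Clustered members such as Pcdhb17 (1.84) and Pcdhb20 (1.70) rose beside the unclustered Pcdh8 (2.36) and Pcdh17 (2.17), while Pcdh19 (-0.87) and Pcdh1 (-0.63) fell. Pcdhb genes are similar in sequence, so that their probe sets may read more than 1 of them. All 4 Ebf factors were called higher (median 2.17). Of 6 Iroquois factors 4 were higher, Irx3 (1.39), Irx5 (1.03), Irx2 (0.88) and Irx6 (0.50).

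Of 23 histocompatibility genes 0 were higher and 5 lower (median -0.11), H2-K1, H2-Bl, H2-D1, H2-Ab1 and H2-M10.1. H2-K1 read 505, 502 and 571 at day 4 and 116, 136 and 129 at day 6 (-1.92 ± 0.11, adjusted p = 2.8e-07). Related class I genes share sequence, and their probe sets may cross-react. Psmb9, a subunit of the immunoproteasome, also fell (-0.90, adjusted p = 0.0053).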
